A study of Mus musculus with 7 samples.

Results

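IL-10 is an anti-inflammatory cytokine, and its gene and 9 companions were described in mouse Treg cells, a regulatory kind of CD4 T cell that requires the transcription factor Foxp3 and holds other immune cells in check. The 10 genes were chosen by name: Il10, the chains of its receptor (Il10ra and Il10rb), 5 transcription factors known to act on Il10 in T cells (Prdm1, Maf, Batf, Irf4 and Bhlhe40), and 2 genes of other suppressive Treg products (Ebi3 and Fgl2). All 10 were among the 15815 genes of the deposited table, and all 10 were among the 11787 genes tested. The marked cells were Hpgd-deficient Treg cells in 3 libraries (KO 1 to 3) and wild-type Treg cells in 4 libraries (WT 1 to 4). All were YFP+ cells sorted from the mesenteric lymph nodes of Rag-/- hosts 8 weeks after transfer, and the hosts had been given WT naive T cells and WT Treg cells without the marker as well. Hpgd encodes the enzyme that inactivates prostaglandins, and in the KO cells a floxed Hpgd was deleted by a Cre that Foxp3 drives together with YFP. All 7 libraries carry the same line label (Hpgd fl; Foxp3-YFP-Cre; strain C57BL/6JRcc), and the genotype is given by the titles. Rag-/- mice make no lymphocytes of the T and B lineages and keep myeloid cells. Neither the age of the mice nor whether libraries stem from different hosts is stated in the labels, so that p-values measure the spread between these libraries, part of which may be technical.

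As background, IL-10 binds a receptor of a specific chain, Il10ra, and a chain shared with other cytokines, Il10rb, and signals through Jak1, Tyk2 and Stat3. In CD4 T cells Maf and Prdm1 (which encodes Blimp-1) raise Il10 transcription, Batf and Irf4 bind DNA together at genes of effector Treg cells, and Bhlhe40 represses Il10. In the intestine and its draining lymph nodes, IL-10 from Treg cells restrains inflammation driven by the microbiota.

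Levels below are normalized counts, the deposited value minus the 1 that it contains, so that 1 read is worth between 0.703 (WT 4) and 1.84 (KO 3). Reads numbered 4135733 to 9501939 in the KO libraries and 6129064 to 10622507 in the WT libraries, with KO 3 the shallowest and WT 4 the deepest. WT 2 and KO 3 lay at opposite ends of the first principal component of all tested genes (scores of 81.9 and -61.0, with the other 5 libraries between -31.6 and 10.5). For the 10 genes, differences and relations with Il10 are given with and without both. For other genes no value without both is given. Hpgd itself lay at 0.759, 2.42 and 5.52 in KO 1 to 3, against 18.7, 9.96, 10.2 and 13.4 in WT 1 to 4, and the groups did not overlap. The same was true of 3.65% of tested genes. These levels rest on 1, 3 and 3 reads in KO and on 17, 11, 9 and 19 in WT. With a mean of 8.70, Hpgd was below the mean of 10 needed for testing. In a fit without that filter it did not pass (limma unadjusted p = 0.0228). The summed level of 8 Treg and T cell markers (Foxp3, Il2ra, Ctla4, Ikzf2, Tnfrsf18, Cd4, Cd3e and Cd3d) was 39688 to 41692 in KO and 36928 to 42374 in WT, and none of them was at 0 in any library. Single markers varied more than the sum. Foxp3 ran from 56.1 in WT 2 to 161 in WT 3, and Ikzf2 from 4832 in WT 2 to 13872 in KO 3. Ctla4 was also lowest in WT 2, while Tnfrsf18, Cd4, Cd3e and Cd3d were highest there.

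Start-site windows from RefSeq (GRCm38.p6, from 250 bases before to 50 bases after the annotated start) were at hand for 5 of the genes (Prdm1, Batf, Irf4, Ebi3 and Fgl2). Those of Fgl2, Prdm1 and Ebi3 are shown because Fgl2 and Prdm1 reached their highest level in the same library, WT 3, where Ebi3 was at its second lowest. The window of Fgl2 lies at chr5:21372423-21372722 on the plus strand, that of Prdm1 (a RefSeq start inside the gene) at chr10:44458699-44458998 on the minus strand, and that of Ebi3 at chr17:55952373-55952672 on the plus strand. Capitals mark matches, on either strand, to the AP-1 motif TGANTCA, which Batf binds with Jun proteins, and to TGCTGA, a half-site bound by Maf proteins.
Fgl2: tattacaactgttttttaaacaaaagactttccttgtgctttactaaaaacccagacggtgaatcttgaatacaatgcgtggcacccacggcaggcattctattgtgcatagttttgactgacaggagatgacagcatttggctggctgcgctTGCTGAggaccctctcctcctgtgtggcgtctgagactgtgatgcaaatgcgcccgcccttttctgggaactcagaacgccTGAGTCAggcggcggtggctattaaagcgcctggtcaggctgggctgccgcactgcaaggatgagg
Prdm1: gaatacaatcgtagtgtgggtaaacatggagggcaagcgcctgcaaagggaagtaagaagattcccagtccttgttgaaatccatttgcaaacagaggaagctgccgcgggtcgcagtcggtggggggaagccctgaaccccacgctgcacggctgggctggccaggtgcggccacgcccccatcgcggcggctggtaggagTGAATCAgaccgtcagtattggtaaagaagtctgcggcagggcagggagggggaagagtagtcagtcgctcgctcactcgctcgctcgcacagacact
Ebi3: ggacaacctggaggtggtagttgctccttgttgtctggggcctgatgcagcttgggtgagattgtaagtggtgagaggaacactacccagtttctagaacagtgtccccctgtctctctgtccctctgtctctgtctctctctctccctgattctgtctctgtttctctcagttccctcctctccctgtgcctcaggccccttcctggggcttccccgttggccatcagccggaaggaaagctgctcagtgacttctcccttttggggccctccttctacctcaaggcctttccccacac
The AP-1 motif was found in Fgl2, at 16 to 10 bases before the start, and in Prdm1, at 48 to 42 bases before the start. It occurs in 7.81% of 32851 such windows. The Maf half-site was found in Fgl2 alone, at 97 to 92 bases before the start, and in 19.5% of all windows. The matches do not overlap each other. The E-box CACGTG, a motif of Bhlhe40, and the interferon response core (GAAA, any 2 bases, GAAA), bound by Irf proteins, had no match in the 5 windows and are in 7.15% and 3.44% of all windows. The windows of Batf, Irf4 and Ebi3 held no match to any of these motifs. A match is a description of the letters and not a site of binding. The windows shown were picked by level, and a link between motif and level was not tested.

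Coordinates here and below are GENCODE M21, GRCm38. Il10 (chromosome 1, 131019845 to 131024974, plus strand, ENSMUSG00000016529.5) had the lowest mean normalized count of the 10 genes and was the most variable. It lay at 24.3, 76.7 and 180 in KO 1 to 3, against 0, 9.05, 36.2 and 69.6 in WT 1 to 4. The highest values were in KO 3 and KO 2, but KO 1 lay below WT 3 and WT 4, so the groups overlapped. These levels rest on 32, 95 and 98 reads in KO 1 to 3 and on 0, 10, 32 and 99 reads in WT 1 to 4. The 95% exact Poisson intervals, which cover counting error only, were 146 to 220 for KO 3 and 16.6 to 34.3 for KO 1, so these replicates differed by more than counting error. The same held in WT, with 56.6 to 84.7 for WT 4 and 4.34 to 16.6 for WT 2. In WT 1 no read was counted, which allows a level of up to 3.30 by a limit of 3 reads, and the two-sided Poisson interval reaches 4.06. The mean was 93.7 ± 79.3 in KO and 28.7 ± 31.3 in WT (SD, n = 3 and n = 4), and on the log2(normalized count + 1) scale the difference was 2.48 (SE 1.20, 95% interval -0.12 to 5.08). Il10 did not pass (limma unadjusted p = 0.0603 and adjusted p = 1.00 over all tested genes), and 288 of the 11787 tested genes had a smaller p. The exact two-sided permutation p over the 35 possible assignments of the libraries was 0.257, where 0.0286 is the smallest possible. Without WT 1, the library with no read, the difference was 1.25, and without both WT 2 and KO 3 it was 1.68 (limma adjusted p = 1.00 in both).

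Il10 is also made by myeloid and B lineage cells, and in a bulk library fewer cells that express a gene and less RNA per cell cannot be told apart. All 10 macrophage and monocyte markers searched for were in the table, and their summed level was 1821, 815 and 1324 in KO 1 to 3 and 1627, 1836, 201 and 1526 in WT 1 to 4. Lyz2, the most abundant of them, ranged from 47.5 in WT 3 to 1274 in KO 1. The sum was 1627 in WT 1, where Il10 had no read. It was lowest in WT 3, where Il10 had the median level of the 7 libraries. Single markers did not all follow the sum. Fcgr1, on few reads, was at 9.87, 13.7 and 16.5 in KO, against 0, 0, 0 and 0.703 in WT. Mrc1 and Adgre1 were highest in KO 3 (34.9 and 129). Csf1r, Cd14, C1qa, C1qb and Cd68 were highest in WT 2, and Itgam in WT 4. Of the dendritic cell markers 7 of 7 were in the table, at a sum of 207 to 254 in KO and 142 to 280 in WT, the most abundant being Zbtb46 (mean 137). Of the B cell markers 5 of 7 were in the table, at 357 to 440.3 in KO and 338 to 767 in WT, nearly all of it Cd79b (mean 444), while Ms4a1 had a mean of 6.89. The 3 plasma cell markers in the table summed to 11.3 to 122 in KO and 4.53 to 22.6 in WT, led by Jchain, which was at 119 in KO 1. NK cell markers summed to 25.7 to 49.3 in KO and 53.2 to 87.9 in WT, with Klrk1 the most abundant (mean 22.1). These sums did not overlap, but for each of the 4 NK markers alone, all at low levels, the groups overlapped. Of single tested genes, 3.65% had groups without overlap. The 2 CD8 T cell markers, nearly all Cd8b1 (mean 86.4), gave 42.3 to 128 for KO and 79.2 to 136 for WT. The 4 erythroid markers in the table gave 62.2 to 199 for KO and 491 to 2033 for WT, again with no overlap, and Hba-a2 led them (mean 542). Apart from the values given, the part of these cells in the results was not tested.

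**Figure D1:**
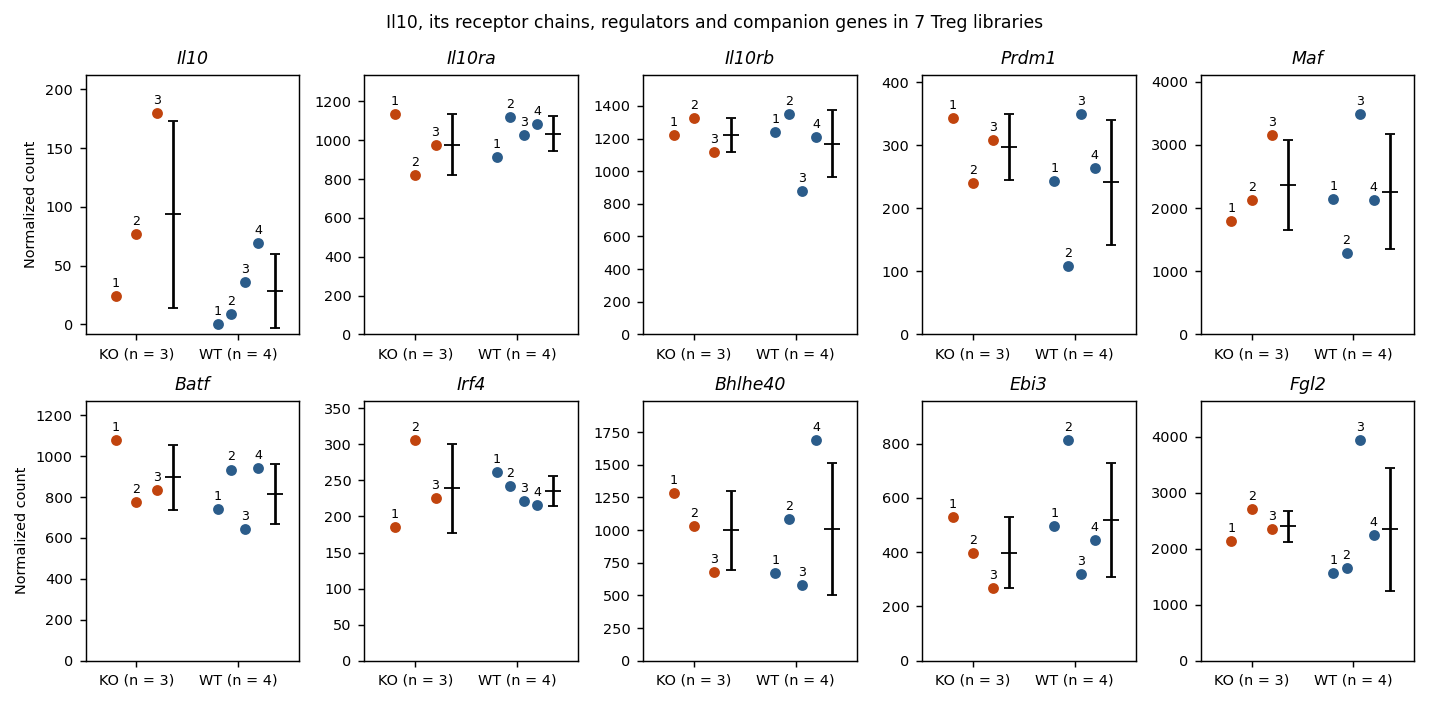
Normalized counts of the 10 genes in the 3 KO and 4 WT libraries. Each point is a library with its replicate number, the bar is the mean and the whiskers are 1 SD, and each panel has its own linear axis. Il10 ranges from 0 in WT 1 to 180 in KO 3, and the KO and WT points overlap in every panel.

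The receptor chains were abundant and steady. Il10ra, the chain that binds IL-10 (chromosome 9, 45253837 to 45269149, minus strand), lay at 1135, 819 and 976 in KO 1 to 3, against 913, 1118, 1026 and 1082 in WT 1 to 4. Il10rb, which also serves the receptors of IL-22 and type III interferons (chromosome 16, 91406164 to 91425834, plus strand), lay at 1223, 1327 and 1118 in KO, against 1239, 1349, 878 and 1211 in WT. Between the lowest and the highest of the 7 libraries, Il10ra differed 1.38-fold and Il10rb 1.54-fold, and the groups overlapped for both. The within-group SD on the log2 scale was 0.18 for Il10ra and 0.22 for Il10rb, smaller than in 93.3% and 86.4% of tested genes. That of Il10 was 2.29, with 0.619% of tested genes more spread. On this scale low counts widen the SD, and Il10 had no read in WT 1. The counting SD was 13.5% of the mean for Il10, against 3.20% for Il10ra and 2.95% for Il10rb. The KO minus WT differences were -0.09 (SE 0.19) for Il10ra and 0.08 (SE 0.20) for Il10rb, and neither passed (limma adjusted p = 1.00 for both). Their 95% intervals ran from -0.51 to 0.32 and from -0.35 to 0.51.

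Maf, a bZIP factor that drives Il10 (chromosome 8, 115682942 to 115707794, minus strand), lay at 1798, 2129.5 and 3161 in KO 1 to 3, against 2148, 1286, 3488 and 2129 in WT 1 to 4. Prdm1 (chromosome 10, 44437177 to 44528501, minus strand), whose product Blimp-1 marks effector Treg cells and plasma cells, lay at 343, 241 and 309 in KO, against 243, 109, 349 and 264 in WT. Both genes were highest in WT 3 and lowest in WT 2, so that the WT libraries held the whole range and the KO libraries lay within it. The differences were 0.11 (SE 0.30) for Maf and 0.40 (SE 0.35) for Prdm1, with 95% intervals of -0.54 to 0.76 and -0.36 to 1.17 (limma adjusted p = 1.00 for both). Without WT 2 and KO 3 the estimate was -0.36 for Maf, with the opposite sign, and 0.028 for Prdm1. Beside Prdm1, the plasma cell markers summed to 122, 11.3 and 20.2 in KO 1 to 3 and to 13.2, 4.53, 22.6 and 8.43 in WT 1 to 4.

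Batf and Irf4, which pair at composite DNA elements, both had groups that overlapped. Batf (chromosome 12, 85686669 to 85709087, plus strand) lay at 1076, 776 and 835 in KO 1 to 3, against 741, 934, 642 and 940.4 in WT 1 to 4. Irf4 (chromosome 13, 30749226 to 30766976, plus strand) lay at 185, 305 and 226 in KO, against 262, 242, 222 and 216 in WT. KO 1 held the highest Batf and the lowest Irf4, and KO 2 the highest Irf4. The differences were 0.14 (SE 0.21) for Batf and -0.0042 (SE 0.25) for Irf4 (limma adjusted p = 1.00 for both). Bhlhe40, a basic helix-loop-helix repressor of Il10 (chromosome 6, 108660629 to 108666925, plus strand), lay at 1283, 1035 and 677 in KO, against 674, 1086, 582 and 1686 in WT. It differed 2.89-fold between WT 3 and WT 4 of the same group, and the KO libraries lay between these. Its difference was 0.07 (SE 0.34, 95% interval -0.67 to 0.80; limma adjusted p = 1.00).

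Ebi3 and Fgl2 stand for other suppressive products. Ebi3 (chromosome 17, 55952640 to 55957022, plus strand), the subunit shared by IL-27 and IL-35, lay at 530.5, 395 and 268 in KO 1 to 3, against 496, 811, 318 and 445 in WT 1 to 4. Its highest value was in WT 2 and its lowest in KO 3, the 2 libraries at the ends of the first principal component. The difference was -0.35 (SE 0.32; limma adjusted p = 1.00), and without WT 2 and KO 3 it was 0.15, with the opposite sign. Fgl2 (chromosome 5, 21372642 to 21378374, plus strand), a secreted fibrinogen-like protein by which Treg cells act on antigen-presenting cells, lay at 2147, 2709 and 2346 in KO, against 1576, 1655, 3937 and 2240.0 in WT. WT 3, with the highest Fgl2, had the lowest sum of macrophage markers (201), and a relation between them was not tested. For Fgl2 all 3 KO libraries lay between WT 2 and WT 3. The difference was 0.13 (SE 0.28, 95% interval -0.49 to 0.74; limma adjusted p = 1.00).

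**Figure D2:**
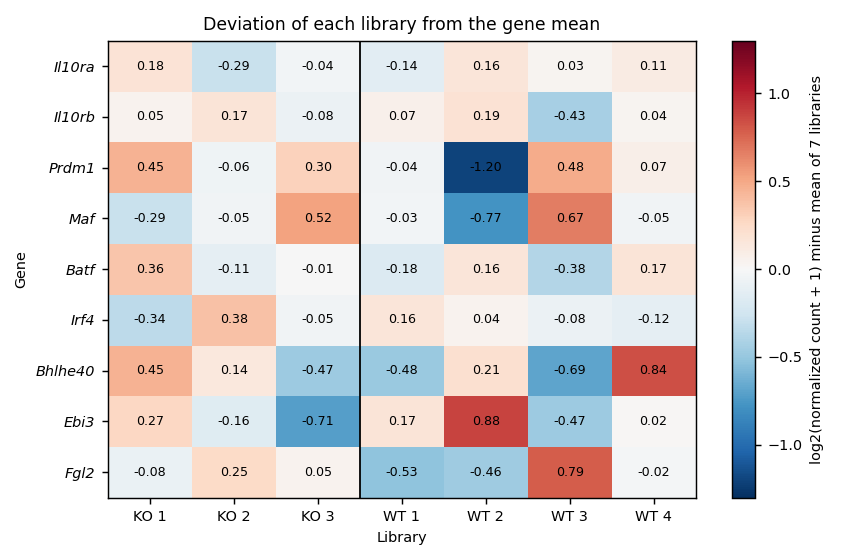
Deviation of each library from the mean of the 7 libraries, on the log2(normalized count + 1) scale, for the 9 genes other than Il10; KO libraries are left of the line and WT libraries right of it. WT 3 has deviations of 0.67 for Maf, 0.48 for Prdm1 and 0.79 for Fgl2, where WT 2 has -0.77, -1.20 and -0.46. Ebi3 shows -0.47 for WT 3 and 0.88 for WT 2.

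Of the 10 genes 0 passed the limma test over all tested genes, as did 0% of all 11787. None of the 10 had an unadjusted p under 0.05, against 1.79% of tested genes (211), and the KO and WT values of none of them were free of overlap, against 3.65% of tested genes (430). Voom on the recovered reads called 0 genes as well, with 193 at an unadjusted p under 0.05. There were 7 estimates above 0 and 3 below, with 51.8% and 48.2% over all tested genes, and a median log2 difference of 0.09 for the 10 genes against 0.01 for all tested genes. The sign of 7 of the 10 estimates changed under at least 1 alternative, and only those of Il10, Prdm1 and Batf kept it under all 15. For Batf the estimate was nonetheless 0.00060 without KO 1, and for Prdm1 it was 0.062 without WT 2. Without WT 2 and KO 3 the estimates not yet given were -0.059 for Il10ra, 0.22 for Il10rb, 0.26 for Batf, 0.034 for Irf4, 0.40 for Bhlhe40 and 0.0042 for Fgl2 (limma adjusted p = 0.998 for each).

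**Figure D3:**
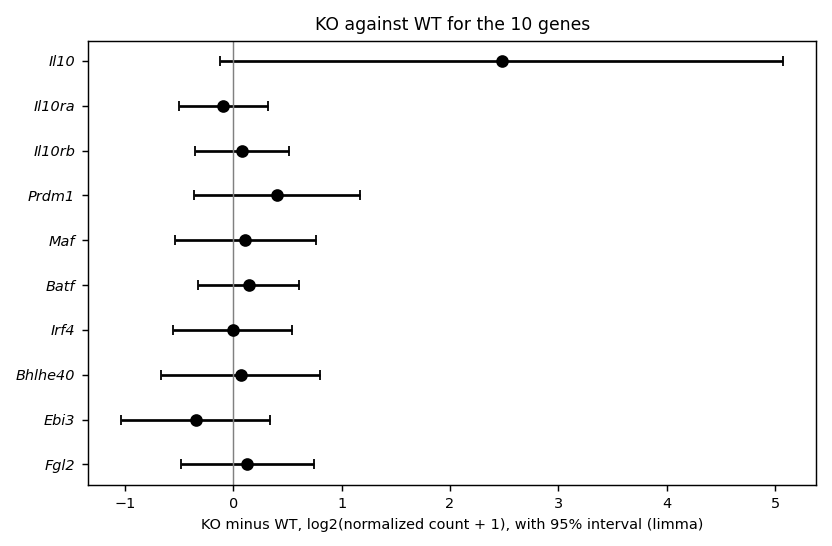
KO minus WT difference of each gene on the log2(normalized count + 1) scale, with its 95% interval from limma. Each interval includes 0, and that of Il10, from -0.12 to 5.08, is the widest.

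Levels of different genes were compared per kilobase of exon (normalized count divided by the union of a gene's GENCODE exons). Over the 7 libraries Fgl2 was first at 626 ± 209 and Batf next at 604 ± 104, followed by Ebi3 at 404 ± 154, Il10rb at 313 ± 41.6, Il10ra at 289 ± 32.9, Maf at 280 ± 92.9 and Bhlhe40 at 213 ± 84.3 (SD, n = 7). Irf4 at 48.3 ± 7.81, Prdm1 at 47.6 ± 14.8 and Il10 at 43.2 ± 47.0 formed the low end. Neighbours in this order overlapped in their ranges, except that Bhlhe40 was above Irf4 in 7 of 7 libraries with ranges that did not overlap. Il10 averaged 71.6 per kilobase in KO and 21.9 per kilobase in WT. In KO this mean was above those of Prdm1 (53.3) and Irf4 (48.7). In WT it was below them (43.2 for Prdm1 and 48.0 for Irf4).

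Il10 was then set against the other 9 genes over the 7 libraries. Over all 7 libraries the largest r values were those of Fgl2 and Ebi3, with opposite signs. Fgl2 had a Pearson r of 0.61 with Il10 (exact permutation p = 0.151) and a Spearman rho of 0.75 (exact permutation p = 0.0663). Ebi3 had an r of -0.58 (exact permutation p = 0.174) and a rho of -0.79 (exact permutation p = 0.0480). Adjusted over the relations of all 11786 other tested genes with Il10, neither passed (adjusted permutation p = 0.824 for both r values, and 0.534 and 0.521 for the rho values of Fgl2 and Ebi3). A higher r than that of Fgl2 was found for 8.42% of these genes, and a lower r than that of Ebi3 for 9.61%. With the genotype means taken away, r was 0.63 for Fgl2 and -0.49 for Ebi3. Leaving out WT 1 and KO 3, whose Il10 lay farthest from the median, gave 0.54 for Fgl2 and -0.78 for Ebi3, and leaving out WT 2 and KO 3 gave 0.67 for Fgl2 and -0.44 for Ebi3. The order of the genes depended on WT 1: without it r was 0.37 for Fgl2, below Maf and Prdm1, and -0.86 for Ebi3. Without WT 3, r for Fgl2 was 0.88 (exact permutation p = 0.0139, adjusted permutation p = 0.844).

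The known activators Maf and Prdm1 had positive but weaker relations with Il10. Maf had an r of 0.40 and a rho of 0.36 (exact permutation p = 0.357 and 0.444), and Prdm1 an r of 0.35 and a rho of 0.21 (exact permutation p = 0.389 and 0.662), with adjusted permutation p of 0.835 and 0.844 for r. Without WT 1 and KO 3 the r values were 0.59 for Maf and 0.61 for Prdm1, and without WT 2 and KO 3 they were 0.12 for Maf and 0.24 for Prdm1. For Maf, r was 0.71 without WT 1 alone and 0.22 without KO 3 alone, and for Prdm1 it was 0.59 without WT 1 alone. Bhlhe40, the repressor, had an r of 0.20 and a rho of 0.07 (exact permutation p = 0.685 and 0.906). For Batf r was 0.12 (rho 0.036), for Irf4 -0.16 (rho -0.036), for Il10rb -0.23 (rho -0.43) and for Il10ra 0.0080 (rho -0.32), with exact permutation p between 0.354 and 0.984. Without WT 1 and KO 3 r was 0.14 for Bhlhe40, -0.32 for Batf, 0.31 for Irf4, -0.15 for Il10rb and -0.63 for Il10ra. The signs for Batf, Irf4, Il10ra and Bhlhe40 changed when WT 1 alone, the library with no Il10 read, was left out. Without it r was -0.28 for Batf, 0.19 for Irf4, -0.58 for Il10ra and -0.23 for Bhlhe40. Without KO 3 alone r was 0.15, -0.13, 0.069 and 0.48 for these genes. The sign for Il10ra also changed without WT 4 (-0.067). Without WT 2 and KO 3, r was 0.51 for Bhlhe40, 0.21 for Batf, -0.12 for Irf4, -0.11 for Il10rb and 0.16 for Il10ra. Of the 9 relations 0 passed, as did 0% of the 11786, of which 5.51% (649) had an exact permutation p under 0.05 for r and 9.21% (1086) for rho. The 9 r values were positive for 6 and negative for 3, against 49.9% and 50.1% of all genes.

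**Figure D4:**
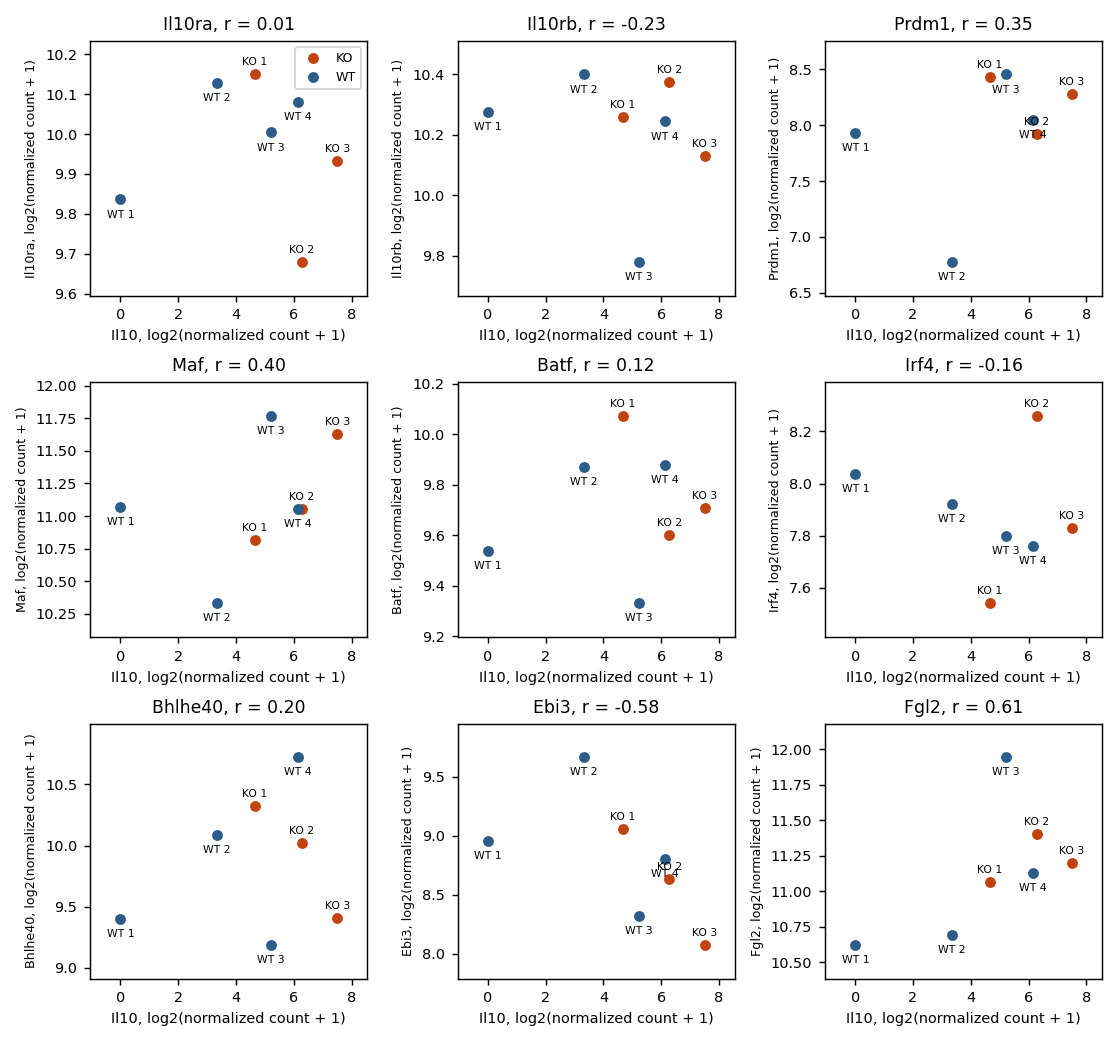
Each of the 9 other genes (vertical axis) against Il10 (horizontal axis), both as log2(normalized count + 1), with 1 labelled point per library and Pearson's r in each title. WT 1, without an Il10 read, is at the left of each panel, and r ranges from -0.58 for Ebi3 to 0.61 for Fgl2.

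**Figure D5:**
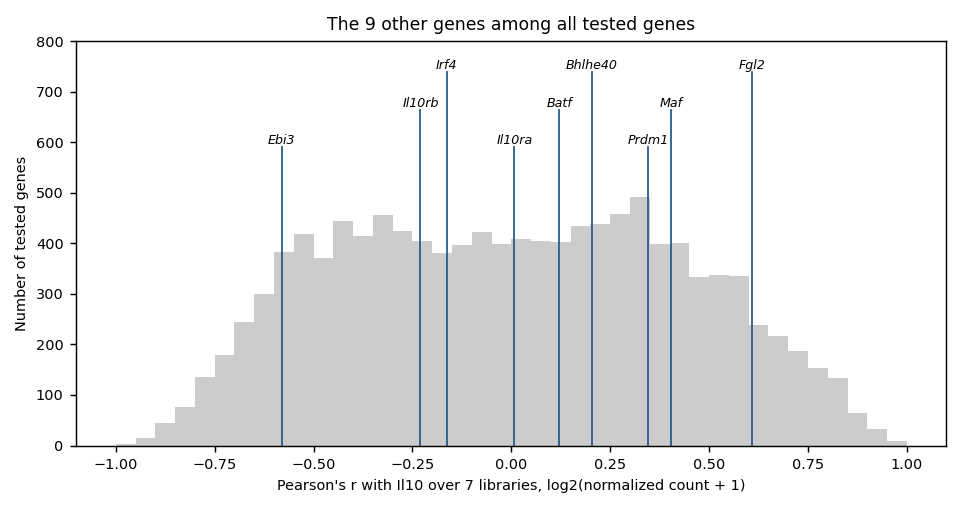
Histogram of Pearson's r with Il10 over the 7 libraries for the 11786 other tested genes, with lines at the 9 genes. Their r values, from -0.58 to 0.61, lie within the broad range of all genes.

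The 5 genes whose levels followed Il10 most closely were Bbs2 (r = 0.98), Greb1l (0.97), Hlf (0.97), Vamp7 (0.96) and Tsc22d1 (0.96), ranked by Pearson r over 7 libraries and given as a description. Hlf, a PAR bZIP transcription factor, lay at 27.3, 61.4 and 62.5 in KO 1 to 3, against 1.10, 19.9, 40.7 and 55.5 in WT 1 to 4, in the same order of libraries as Il10 (rho = 1). Vamp7, a SNARE protein of vesicle fusion, lay at 225, 268 and 403 in KO, against 110.0, 191, 335 and 324 in WT. Greb1l, at a mean of 12.8, rests on few reads. All 5 genes were lowest in WT 1, the library with no Il10 read. There Bbs2 was at 3.30, Greb1l at 0 and Hlf at 1.10, each on few reads or none. Their r without WT 1 is not given here. At the other end were Sh3bp1, Tjp3, Retreg3 and Vac14, with r from -0.96 to -0.93. Sh3bp1, a GTPase-activating protein, lay at 398, 356 and 335 in KO, against 469, 440.0, 389 and 356 in WT. None of the 9 other members of the set was among the genes at either end.

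Among the other genes of the pathway, the 12 of IL-10 receptor signalling were all tested, with 3 estimates above 0 and 9 below (median log2 difference -0.07) and 0 called in either direction. Jak1, the kinase on Il10ra, averaged 5892 ± 293 in KO and 5381 ± 450 in WT, and Stat3, the main transducer, 2399 ± 422 in KO and 2508 ± 193 in WT (SD, n = 3 and n = 4). Socs3, a feedback inhibitor induced by Stat3, averaged 907 ± 175 in KO and 903 ± 275 in WT. The smallest p belonged to Sbno2, a corepressor induced by IL-10 in macrophages, at 469, 354 and 322 in KO 1 to 3 against 625, 513, 407 and 458 in WT 1 to 4 (-0.39, SE 0.23), and to Socs1 (-0.30, SE 0.25). Neither passed (limma adjusted p = 1.00 for both).

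Of 46 other transcription factors and regulators linked to Il10, 45 were in the table and 42 were tested. Their estimates were above 0 for 22 and below 0 for 20 (median 0.02), 0 were called in either direction, and 2 had groups that did not overlap (3.65% over all tested genes), Jund and Fosl2. Both encode AP-1 subunits, which can pair with Batf (Jund) or with Jun proteins (Fosl2). Jund lay at 257, 209 and 272 in KO 1 to 3, against 318, 457, 378 and 401 in WT 1 to 4 (-0.65, SE 0.23). Fosl2 lay at 184, 195 and 195 in KO, against 112, 76.0, 158 and 146 in WT (0.68, SE 0.31). Neither passed over all tested genes (limma unadjusted p = 0.0141 and 0.0489, adjusted p = 1.00 for both). Gata3 averaged 2454 ± 417 in KO and 2393 ± 472 in WT, and Ahr 718 ± 105 in KO and 757 ± 168 in WT (SD, n = 3 and n = 4).

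Of 11 other IL-10 family cytokines and receptors only Il22 and Il20rb were in the table, and Il20rb alone was tested. Il20rb, a chain of the receptors for IL-19, IL-20 and IL-24, lay at 27.3, 8.08 and 25.7 in KO 1 to 3, against 0, 0.905, 3.39 and 11.2 in WT 1 to 4, with groups that overlapped (2.58, SE 1.15; limma unadjusted p = 0.0428 and adjusted p = 1.00). Il22 had a mean of 3.10 and was listed at 0 in 3 of the 7 libraries.

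Il27, which encodes the partner of Ebi3 in IL-27, had a mean of 1.52 and was at 0 in 3 libraries, and Il12a, the other subunit of IL-35, was not analysed here. Of the 5 tested genes of the IL-27 and IL-35 list, 1 estimate was above 0 and 4 were below (median -0.11), with 0 called. The receptor gene Il27ra averaged 2279 ± 890 in KO and 2387 ± 684 in WT (SD, n = 3 and n = 4). Il12rb2 (-1.77, SE 1.06) and Il6st (0.32, SE 0.27) had the smallest p of the list and did not pass (limma adjusted p = 1.00 for both).

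Of 34 genes of IL-10-producing and effector Treg cells, 32 were tested, with 21 estimates above 0 and 11 below (median 0.03), 0 called and 0 with groups free of overlap. Ccr6, a receptor for gut homing, lay at 569, 468 and 471 in KO 1 to 3, against 487, 368, 435 and 290.3 in WT 1 to 4 (0.37, SE 0.23). Icos, a costimulatory receptor needed by many IL-10-producing T cells, lay at 6004, 7149 and 6999 in KO, against 5116, 4380.0, 6927 and 5498 in WT (0.31, SE 0.21). Neither passed (limma adjusted p = 1.00 for both).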

How the data were processed

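The members, gene lists and tests were chosen with earlier results of these data known. SmartSeq2 libraries, from 10 ng of RNA each, were sequenced on a NextSeq 500 (per the labels' protocols). SmartSeq2 uses no molecular identifiers and does not mark strand. Tools listed in the submitters' processing notes, without role or order, are kallisto 0.44, Partek 6.6, CASAVA 1.8, DESeq2 and R 3.3.1, with build mm10. The authors deposited a normalized signal per gene. Subtracting its minimum of 1 left whole multiples of a library-specific step for 100% of values (tolerance 0.01 of a read), which gave the recovered reads, and value minus 1 is here the normalized count.

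KO (n = 3) and WT (n = 4) were compared with limma 3.58.1 in R 4.3.3 using log2(normalized count + 1), a trended prior and no covariate. Benjamini-Hochberg adjustment at 0.05 ran over the 11787 genes with a mean of at least 10. Deposited values are not counts, so no count model was run, and voom on recovered reads was an alternative. The code recovered large known changes in data simulated with the same dispersion for all genes and no outlying library. That does not measure its power in these libraries. Relations with Il10 used two-sided exact permutation over 5040 pairings (numpy 2.4.6), adjusted over all tested genes. Genes outside the 10 were named by rule: Hpgd, the 2 genes of each list with the smallest p, any that passed, the 5 highest and 5 lowest r with Il10 (1 of the lowest is not reported here), and the most abundant marker of each other cell type. Jak1, Stat3, Socs3, Gata3, Ahr, Il22, Il27, Il27ra, Ms4a1 and Tigit were named after their values had been seen. Outside this rule, each Treg marker and each macrophage and monocyte marker in the table, Fcgr1 among them, was also named. No pair of libraries agreed within sampling noise.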

Additional observations from a re-analysis of the deposited data

How the results depend on the processing

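Il10 kept a KO minus WT difference above 0 under all 15 alternatives, from 1.25 to 3.30 on the log2 scale, and did not pass under any (limma adjusted p from 0.545 to 1.00). Leaving out each library in turn gave 1.25 to 3.30. The number of genes called over all tested genes was 4 with array weights, 3 with the replicate block and 4 without WT 2 and KO 3 (chosen after seeing the data), and none of the 10 genes was among them; it was 0 to 0 when each library was left out in turn. The cause was not tested.

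Over the 10 differences 20 of 150 values changed sign. Scaled to total reads, Irf4 was at 0.0029, and with voom at 0.029. With array weights Maf was at -0.10 and Irf4 at 0.12. Without WT 2 and KO 3, Maf was at -0.36, Irf4 at 0.034 and Ebi3 at 0.15. Leaving out each library in turn gave -0.20 to 0.16 for Irf4, -0.15 to 0.36 for Bhlhe40, -0.21 to 0.029 for Il10ra, -0.13 to 0.35 for Maf, -0.032 to 0.41 for Fgl2 and -0.052 to 0.15 for Il10rb, and, with no change of sign, 0.00060 to 0.24 for Batf and 0.062 to 0.62 for Prdm1. Of the 9 relations with Il10, 0 passed under each of the 12 alternatives, and 11 of 108 values changed sign. For Il10ra r was -0.11 with a pseudocount of 5, -0.023 when scaled to total reads and -0.63 without the libraries farthest from the median of Il10. For Batf it was -0.049 with genotype means taken away and -0.32 without those libraries, where it was 0.31 for Irf4. Leaving out each library in turn gave r of -0.58 to 0.35 for Il10ra, -0.28 to 0.25 for Batf, -0.57 to 0.19 for Irf4 and -0.23 to 0.48 for Bhlhe40, and, with no change of sign, 0.37 to 0.88 for Fgl2, -0.86 to -0.41 for Ebi3, 0.22 to 0.71 for Maf and 0.27 to 0.59 for Prdm1.

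The replicate numbers in the titles are not said to pair libraries. The deviations of same-numbered libraries from their group means correlated at 0.0081, -0.036 and 0.094 over tested genes. Those of the other pairs lay between -0.20 (KO 1 with WT 3) and 0.20 (KO 1 with WT 2). Deviations within a group cancel each other and the pairs are few. These values therefore cannot show whether same-numbered libraries share a host or batch. Under the replicate block, in which WT 4 has no partner, the Il10 difference was 3.30 (limma unadjusted p = 3.24e-04, adjusted p = 0.545). Il10 rests on at most 99 reads in any library.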

Other observations

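Sbno2 and Tigit had large r values with Il10 that did not pass, and they are given as a description. Tigit was chosen after its values were seen. Of all 11786 relations with Il10, 5.51% had an exact permutation p under 0.05 for r. Sbno2 had a Pearson r of -0.92 with Il10 (exact permutation p = 0.00179, adjusted permutation p = 0.824 over all tested genes) and a Spearman rho of -0.96. Without WT 1 and KO 3 its r was -0.76. Tigit, an inhibitory receptor of effector Treg cells, had an r of 0.88 (exact permutation p = 0.0278, adjusted permutation p = 0.824) and a rho of 0.71, and without WT 1 and KO 3 its r was 0.20, so that its relation rests on those libraries.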
